A study of Mus musculus with 12 samples.

Results

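The mitochondrially encoded transcripts were taken as all rows of the count table whose symbol starts with mt-, which gave 26 of 24561 genes. They comprised all 13 mRNAs of the mitochondrial genome, both ribosomal RNAs (rRNAs) and 11 of its 22 transfer RNAs (tRNAs), while the other 11 tRNA genes were not analysed here. Of the 26 members, 23 passed the filter on low counts; *mt-Atp8*, *mt-Tc* and *mt-Ts2* did not. The family was selected on the same comparison of labelled groups that is described here, so its differences between groups are given as a description. No p is given for a member, and calls are only counted over the family, to be read beside the share of all genes called.

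The samples were follicular helper T (Tfh) cells, the CD4+ T cells that help B cells in the follicle. OT-II T cells, which carry a T cell receptor for an ovalbumin peptide, came from C57BL/6 mice with CD4-Cre and Bcl6 fl/+ (labelled BCL6-insufficient, Cre in T cells and 1 floxed *Bcl6* allele) or with CD4-Cre alone (labelled wild-type), so both groups carried Cre. All cells were transferred into CD45.1 Sap-/- recipients, whose own T cells lack the adaptor SAP, and the recipients were immunized with NP-OVA and LPS in alum. CXCR5hi PD-1hi cells were sorted from the draining lymph node on day 3, as 2 technical repeats of about 200 cells from each of 3 mice per group (12 libraries, 6 mice). The sources do not say how many donor mice supplied the transferred cells, so spread between mice may be spread between recipients of one donor's cells.

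Mitochondrial DNA is a small circle that encodes 13 subunits of the respiratory chain together with the rRNAs and tRNAs that translate them. Both strands are transcribed into long precursors, most mRNAs and rRNAs are cut out at the tRNAs that lie between them, and nearly all messages then receive a poly(A) tail. All other subunits, and the polymerase, the processing enzymes and the stabilizing proteins, are encoded in the nucleus, and T cells are known to enlarge their mitochondrial mass and respiration after activation.

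Library totals ran from 3343375 to 8315722 counts in the group labelled BCL6-insufficient and from 5240715 to 7266106 in the group labelled wild-type, with 14946 to 16249 genes detected in a library. The nuclear ribosomal RNA row *CT010467.1* took 12.03% to 17.1% and 12.7% to 20.9% of the counts, respectively. *Bcl6* itself went against its label. Its level was 148 ± 2.17 (SD, n = 3 mice) in the libraries labelled BCL6-insufficient and 62.3 ± 11.5 in those labelled wild-type, in normalized CPM, the reads of a gene over the TMM-adjusted total of its mouse. Counts over the whole gene do not separate the floxed exons from the rest, so this row checks the deletion only in part, and every direction below rests on the labels. An exchange of the labels would turn every sign, and whether one took place was not tested. Of the other Tfh markers called, *Cxcr5* (-0.40), *Pdcd1* (-0.42) and *Tox2* (-0.80) were lower and *Icos* (0.64) and *Maf* (0.74) higher in the libraries labelled BCL6-insufficient, as log2 fold changes. The smallest library, repeat 1 of BCL6-insufficient mouse 3, stood apart for several members, and values without it are given where they matter.

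The sequence of the members bears on how they were counted, because parts of the mitochondrial genome also lie in the nuclear genome. A search of the annotated nuclear transcripts (at least 95% identity over at least 60 bases, GENCODE release M21, GRCm38) found 11 such copies, all with rows in the count table. A block of 7 copies lies on the minus strand of chromosome 1, within chr1:24611535-24616197, and holds *mt-Nd4*, *mt-Nd4l*, *mt-Nd3*, *mt-Co3*, *mt-Atp6*, *mt-Co2* and the end of *mt-Co1*. The copies of *mt-Co2* (*Gm28661*), *mt-Atp6* (*Gm10925*), *mt-Co3* (*Gm28437*), *mt-Nd4l* (*Gm10222*) and the first 63.6% of *mt-Nd4* (*Gm28439*) were identical to the member over the aligned length. The pairs below are shown because a read from the first would be placed equally well on its copy, whereas reads from the others could be told apart only at the capitals, which mark mismatches. Coordinates are on GRCm38, and sequences run 5′ to 3′ on the strand of the gene.
mt-Co2, chrM:7313-7392, plus strand: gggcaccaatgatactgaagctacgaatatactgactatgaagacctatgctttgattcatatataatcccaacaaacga
Gm28661, chr1:24615186-24615265, minus strand: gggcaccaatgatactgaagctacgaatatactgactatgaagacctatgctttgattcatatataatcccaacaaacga
mt-Nd3, chrM:9461-9540, plus strand: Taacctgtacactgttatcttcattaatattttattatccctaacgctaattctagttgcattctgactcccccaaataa
Gm28438, chr1:24613038-24613117, minus strand: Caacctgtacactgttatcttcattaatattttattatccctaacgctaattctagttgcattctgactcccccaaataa
mt-Co1, chrM:5789-5868, plus strand: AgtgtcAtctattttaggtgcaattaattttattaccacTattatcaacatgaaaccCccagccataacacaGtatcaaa
Gm13340, chr2:22589107-22589186, minus strand: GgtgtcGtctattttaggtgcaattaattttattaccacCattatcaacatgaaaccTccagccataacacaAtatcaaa

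Counted from 1 at the 5′ end of the window, *mt-Nd3* differed from its copy by T1C, the 1 mismatch in 345 aligned bases. *mt-Co1* differed from the chromosome 2 copy *Gm13340* by A1G, A7G, T40C, C58T and G73A in the window shown, and by 37 mismatches over its 1545 bases.

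The ends of the messages bear on their capture, since the libraries were primed from poly(A) tails. Of the 13 mRNAs, 3 had a length that is not a multiple of 3 (*mt-Co3*, *mt-Nd4* and *mt-Cytb*) and closed on a lone T, which the tail completes to a stop codon. The last 30 bases of 4 messages are shown, with the letters after the last whole codon, or the last codon itself, in capitals.
mt-Nd4, chrM:11515-11544, plus strand: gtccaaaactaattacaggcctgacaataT
mt-Cytb, chrM:15259-15288, plus strand: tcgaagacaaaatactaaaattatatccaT
mt-Co1, chrM:6843-6872, plus strand: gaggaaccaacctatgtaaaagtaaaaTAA
mt-Nd6, chrM:13552-13581, minus strand: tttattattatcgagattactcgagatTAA

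*mt-Nd6*, which in human cells is known as the message without a regular poly(A) tail, is the 1 mRNA on the minus strand. It shares 14 bases with *mt-Nd5* on the other strand. Reads from *mt-Nd6* and from RNA antisense to it can be told apart only if both the library and the counting kept strand. The sources name SMART-Seq2 and describe no step that keeps strand, nor do they give the counting setting, so this row may hold both. On the plus strand, *mt-Atp8* and *mt-Atp6* share 43 bases and *mt-Nd4l* and *mt-Nd4* share 7, so counts near these borders could fall to either row or be dropped.

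As a share of all counts, the family made up 2.55% ± 0.227 (SD, n = 3 mice) in the group labelled BCL6-insufficient and 2.05% ± 0.261 in the group labelled wild-type. Mouse by mouse the shares ran from 2.31% to 2.76% and from 1.81% to 2.33%, so that the ranges overlapped slightly. Single libraries overlapped further, since repeat 2 of BCL6-insufficient mouse 3 was at 2.11% and repeat 2 of wild-type mouse 1 at 2.54%. In a bulk sample, a lower level in each cell and fewer cells with a high level cannot be told apart.

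**Figure D1:**
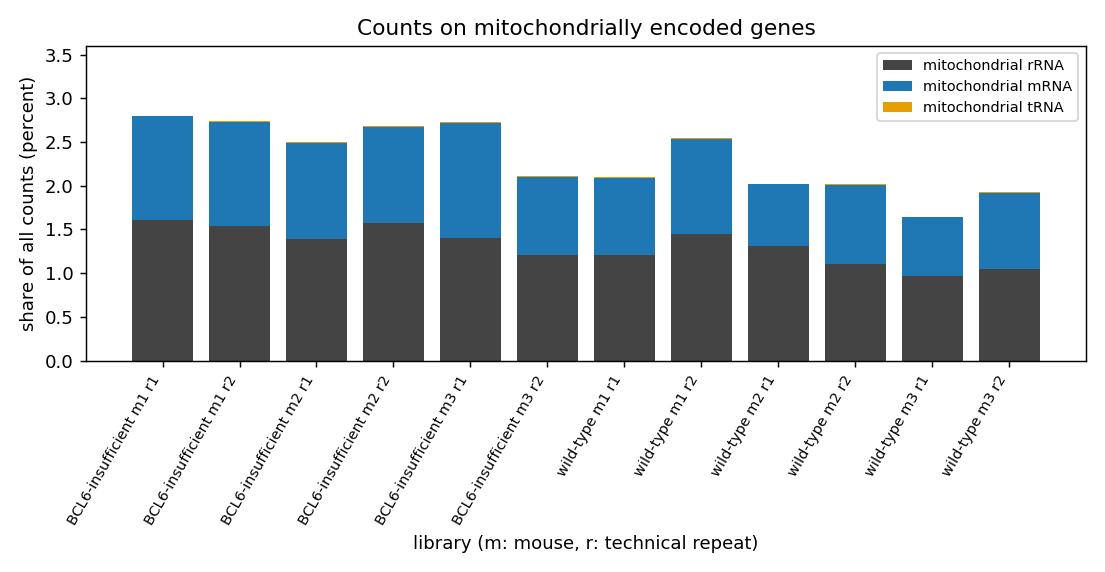
Share of all counts (percent, y axis) on mitochondrial rRNA, mRNA and tRNA in each of the 12 libraries (x axis). The family took between 1.65% and 2.80% of a library, and the tRNA part is too small to see.

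The rRNAs took 1.44% ± 0.148 against 1.18% ± 0.160 of the counts, the mRNAs 1.104% ± 0.0811 against 0.863% ± 0.1097, and the tRNAs 0.00956% ± 0.000719 against 0.00877% ± 0.00141. The mRNA ranges of the groups did not overlap (1.03% to 1.19% and 0.788% to 0.989%), whereas those of rRNA and tRNA did. By respiratory complex, complex I mRNA made up 0.423% ± 0.0319 against 0.277% ± 0.0340 and complex III mRNA 0.374% ± 0.0323 against 0.277% ± 0.0266. Complex IV mRNA was at 0.306% ± 0.0193 against 0.310% ± 0.0542, nearly all of it *mt-Co1*.

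Per kilobase of gene, the order of levels in the wild-type group was led by *mt-Rnr2*, the large-subunit rRNA, at 6679 ± 897 normalized CPM per kb. *mt-Cytb* followed at 2376 ± 221 and *mt-Co1* at 1950 ± 317, whose mice overlapped. *mt-Nd1* was at 1342 ± 185 and *mt-Rnr1*, the small-subunit rRNA, at 1070 ± 197, again with overlap between them. Below these came *mt-Nd5* at 483 ± 61.6, *mt-Nd4* at 262 ± 28.9, *mt-Nd6* at 144 ± 37.7 and *mt-Nd2* at 104 ± 18.2, of which the last pair overlapped. The remaining mRNAs were at 21.9 per kb or less. The order in the group labelled BCL6-insufficient was alike down to *mt-Co3*, but there *mt-Co1* (1984 ± 134) overlapped *mt-Nd1* (1878 ± 78.4) and no longer *mt-Cytb* (3328 ± 264).

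The low group was made up of the mRNAs with near-complete copies, plus *mt-Atp8*. For *mt-Co2*, *mt-Atp6*, *mt-Co3*, *mt-Nd3* and *mt-Nd4l*, 98.0% to 100% of all 50-base windows also occurred letter for letter in an annotated nuclear transcript, and their wild-type levels were 6.83 to 21.9 normalized CPM per kb. The other mRNAs that were tested lay at 104 to 2376 per kb, among them *mt-Nd4* with 62.2% and *mt-Co1* with 51.1% of windows copied. Because a read that fits a nuclear copy equally well may be dropped or shared out by the counting, levels of these 5 messages are uncertain; the part of the copies in their low level was not tested. *mt-Atp8*, at 1.38 ± 0.468 per kb, had no window in an annotated nuclear transcript, and the search did not cover unannotated nuclear sequence. That gene lies between *mt-Co2* and *mt-Atp6*, whose chromosome 1 copies are neighbours too. *Gm10925* ends at chr1:24614651 and *Gm28661* starts at chr1:24614885. Whether the stretch between them holds a copy of *mt-Atp8* was not tested, so its level is uncertain as well.

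**Figure D2:**
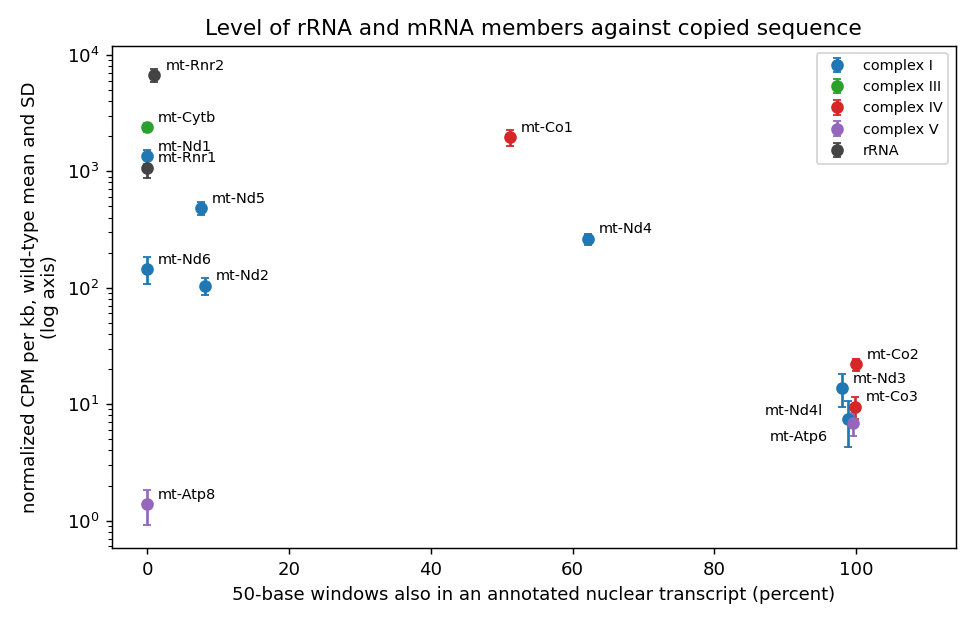
Mean level per kb in the wild-type mice (y axis, log scale, bars: SD over 3 mice) against the percentage of 50-base windows of the gene that also occur in an annotated nuclear transcript (x axis). The 5 mRNAs at 98.0% or more lie at 21.9 normalized CPM per kb or less. Unannotated nuclear sequence was not searched, so the value of *mt-Atp8* covers annotated transcripts only.

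Across the 23 members tested, the median log2 fold change of BCL6-insufficient over wild-type was 0.68, against 0.01 for all 12719 genes tested, and 21 members were above 0. An edgeR adjusted p under 0.05 was reached by 12 members with higher and 1 with lower counts. Over all genes 18.0% were called, 9.17% as higher and 8.82% as lower, and as the family was chosen by this same contrast nothing is read from its count. On log2(TPM + 1) 5 members were called, on log2(TPM + 0.1) 4, all higher, and repeat 2 alone gave 8 higher and 1 lower. With a mouse left out 9 to 12 were called higher, and none lower without BCL6-insufficient mouse 1 or 3 or wild-type mouse 1 or 3. The mice of the groups did not overlap for 16 members that were higher and 1 that was lower, next to 17.4% and 17.0% of all genes.

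These differences changed with the technical repeat and when trends with GC content and length, which were not separated, were removed together. Members are poor in G and C (31.9% to 41.1% in mRNAs and rRNAs, median of all genes 49.1%), and once trends of counts with GC content and length were removed in each mouse, the median fell to 0.31 with 6 members called higher, 1 called lower and 18 above 0. Repeat 1 alone gave a median of 0.82 and repeat 2 alone 0.59.

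**Figure D3:**
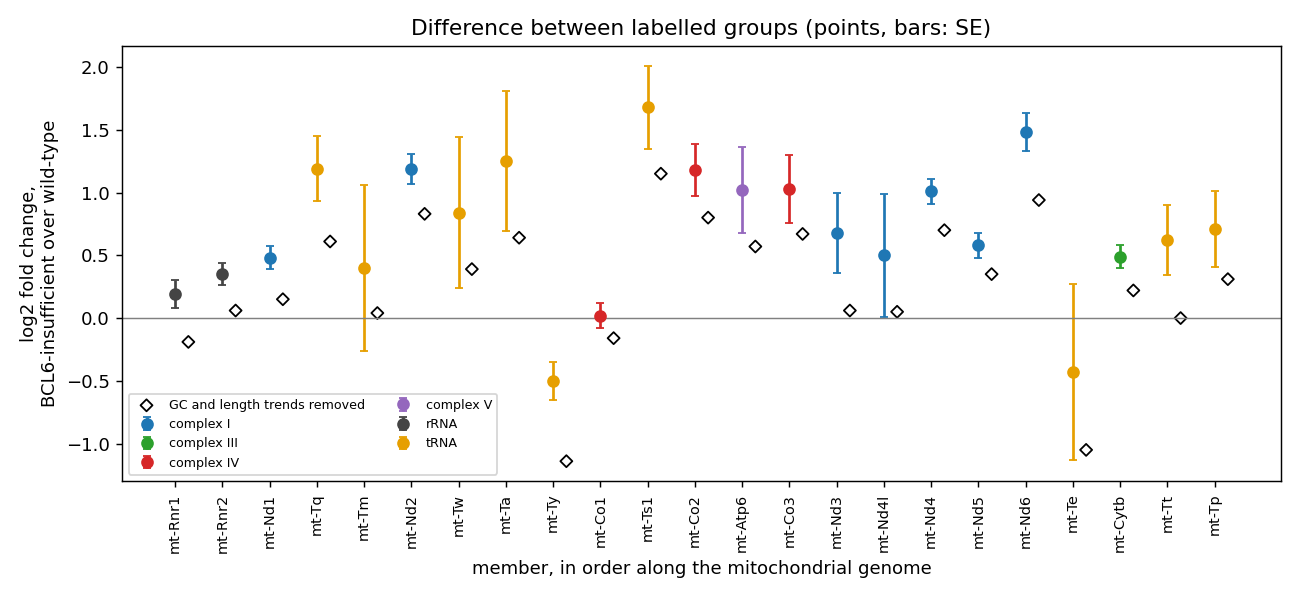
Log2 fold change of BCL6-insufficient over wild-type (y axis, filled points with SE) for the 23 members tested, in genome order (x axis) and coloured by class, with open diamonds for the values after removal of GC and length trends. *mt-Nd6*, *mt-Ts1* and *mt-Ta* lie highest and *mt-Ty* and *mt-Te* lie below 0.

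The rRNAs, the core of the mitochondrial ribosome, had a median log2 fold change of 0.27. *mt-Rnr2* (chrM:1094-2675) was at 14658, 13542 and 12185 normalized CPM in BCL6-insufficient mice 1 to 3 and at 11642, 11099 and 8957 in wild-type mice 1 to 3. The groups did not overlap, and the log2 fold change was 0.35 (SE 0.09). *mt-Rnr1* (chrM:70-1024) was at 1288, 1170 and 1049 against 1228, 977 and 860, which overlapped, with a log2 fold change of 0.19 (SE 0.11) that was 0.08 without wild-type mouse 3 and 0.34 without wild-type mouse 1. After removal of GC and length trends these values were 0.06 and -0.19.

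Complex I, the NADH dehydrogenase that feeds electrons into the chain, has 7 members, all with log2 fold changes above 0 (0.48 to 1.48). *mt-Nd6* (chrM:13552-14070) stood highest among the mRNAs tested in the fit on summed repeats. Its normalized CPM was 232, 226 and 167 in the BCL6-insufficient mice and 81.7, 90.2 and 52.9 in the wild-type mice, 2.79-fold higher on the fitted scale (log2 1.48, SE 0.15). No wild-type mouse reached the lowest BCL6-insufficient mouse, and both repeats alone gave 1.49. In repeat 1 alone *mt-Co2* (1.86), *mt-Co3* (1.61), *mt-Nd2* (1.59) and *mt-Atp6* (1.55) stood above *mt-Nd6*.

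*mt-Nd2* (chrM:3914-4951) was at 282, 232 and 224 against 119, 119 and 86.1 (log2 1.19, SE 0.12). *mt-Nd4* (chrM:10167-11544) was at 793, 728 and 663 against 382, 387 and 316 (log2 1.01, SE 0.10). Neither overlapped, but both were larger in repeat 1 (1.59 and 1.39) than in repeat 2 (0.94 and 0.79). *mt-Nd5* (chrM:11742-13565) was at 1410, 1298 and 1234 against 949, 942 and 751 (log2 0.58, SE 0.10), and *mt-Nd1* (chrM:2751-3707) at 1882, 1771 and 1739 against 1488, 1200 and 1166 (log2 0.48, SE 0.09), also without overlap. With GC and length trends removed, the values were 0.94 for *mt-Nd6*, 0.83 for *mt-Nd2*, 0.70 for *mt-Nd4*, 0.35 for *mt-Nd5* and 0.15 for *mt-Nd1*.

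The small subunits *mt-Nd3* and *mt-Nd4l* were counted at low depth, with 7 to 68 counts in a library. *mt-Nd3* was at 7.85, 8.55 and 6.57 normalized CPM against 6.49, 3.82 and 4.05 (log2 0.68, SE 0.32), and *mt-Nd4l* at 3.27, 2.79 and 3.28 against 3.29, 1.86 and 1.499 (log2 0.50, SE 0.49), the latter with overlapping groups. With GC and length trends removed, these log2 fold changes were 0.06 and 0.05. Repeats 1 and 2 alone gave 0.53 and 0.71 for *mt-Nd3* and 0.10 and 0.84 for *mt-Nd4l*, which was at 0.88 without wild-type mouse 1 and 0.27 without wild-type mouse 3.

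**Figure D4:**
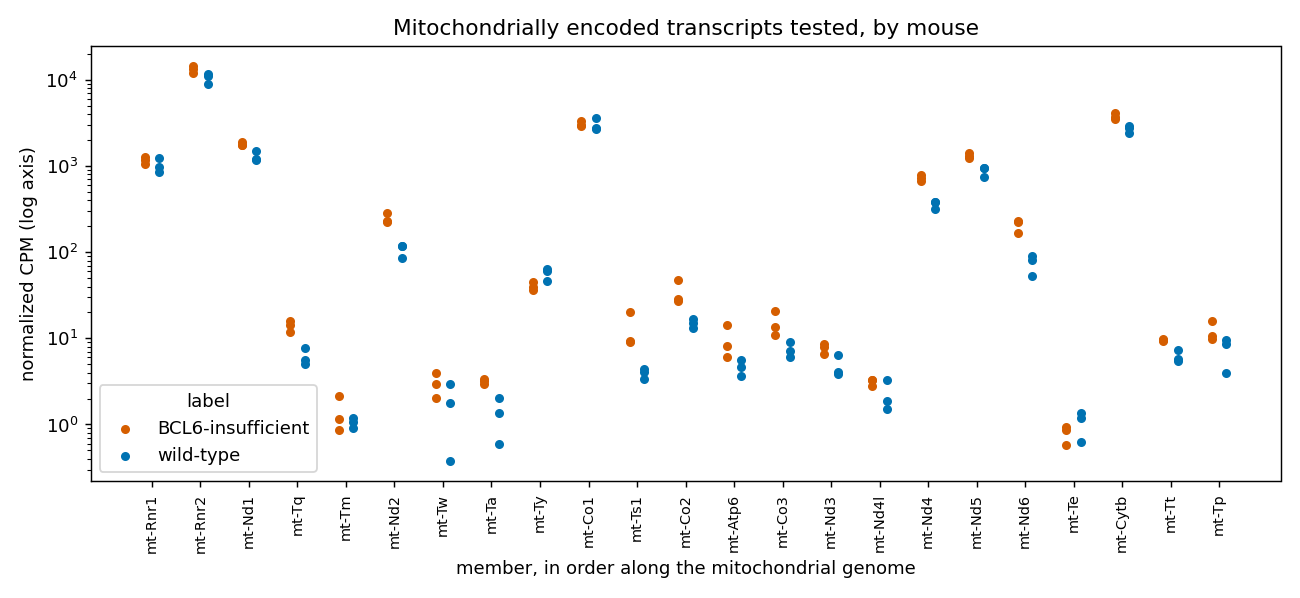
Normalized CPM (y axis, log scale) of the 23 members tested in each of 3 BCL6-insufficient and 3 wild-type mice, in genome order (x axis). The groups separate for *mt-Nd2*, *mt-Nd4* and *mt-Nd6* and overlap for *mt-Rnr1* and *mt-Co1*.

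Complex III, the cytochrome bc1 complex, has a single member, the cytochrome b message *mt-Cytb* (chrM:14145-15288). It was at 4136, 3745 and 3543 normalized CPM against 2960, 2736 and 2457, without overlap, with a log2 fold change of 0.49 (SE 0.09) that fell to 0.22 after removal of GC and length trends. No part of it was found in a nuclear transcript.

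Complex IV, the cytochrome c oxidase, split in its values. *mt-Co1* (chrM:5328-6872), which encodes the catalytic subunit, was at 3301, 2912 and 2981 against 3574, 2669 and 2797, with full overlap and a log2 fold change of 0.02 (SE 0.10). Its sign depended on the repeat, at 0.30 in repeat 1 and -0.17 in repeat 2, and was -0.16 with GC and length trends removed. It ran from -0.07 to 0.16 with a mouse left out.

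*mt-Co2* (chrM:7013-7696), the subunit that takes electrons from cytochrome c, was at 27.0, 28.4 and 47.1 against 15.3, 16.7 and 13.0 (log2 1.18, SE 0.21). *mt-Co3* (chrM:8607-9390) was at 10.8, 13.6 and 21.0 against 7.13, 9.14 and 6.00 (log2 1.03, SE 0.27). Mouse 3 of the BCL6-insufficient group was highest for both, and without its repeat 1 the log2 fold changes were 0.80 and 0.56. Repeat 1 alone gave 1.86 and 1.61, repeat 2 alone 0.75 and 0.54, and removal of GC and length trends 0.80 and 0.67.

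Complex V, the ATP synthase, has *mt-Atp6*, its proton channel subunit, and *mt-Atp8*. *mt-Atp6* (chrM:7927-8607) was at 8.14, 6.02 and 14.3 against 5.67, 3.64 and 4.65 (log2 1.02, SE 0.34), and without repeat 1 of BCL6-insufficient mouse 3 at a log2 fold change of 0.61. Its log2 fold change ran from 0.61 (without BCL6-insufficient mouse 3) to 1.26 with a mouse left out, was 1.55 in repeat 1 and 0.60 in repeat 2, and was 0.57 with GC and length trends removed. *mt-Atp8* collected 19 counts over the 6 BCL6-insufficient libraries and 10 over the 6 wild-type libraries, too few for the fit.

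The tRNAs, which also mark where the precursors are cut, were the most varied class, with log2 fold changes from -0.50 to 1.68. A count on a tRNA row can come from a mature tRNA, a precursor or an antisense RNA, and the counts do not separate them. The genes of the 2 most counted tRNA rows, both on the minus strand, are shown because their values went in opposite directions.
mt-Tq (glutamine), chrM:3772-3842, minus strand: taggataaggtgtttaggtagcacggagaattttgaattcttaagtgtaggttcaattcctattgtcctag
mt-Ty (tyrosine), chrM:5260-5326, minus strand: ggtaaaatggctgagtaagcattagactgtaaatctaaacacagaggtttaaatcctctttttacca

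*mt-Ty* was at 39.5, 45.7 and 36.1 normalized CPM against 63.8, 46.5 and 60.9 (log2 -0.50, SE 0.15), which left the groups apart by less than 1 CPM. Its log2 fold change was -0.15 in repeat 1, -0.79 in repeat 2 and -1.14 with GC and length trends removed. It lies 1 base before *mt-Co1* on the other strand, and there were 0.0133 ± 0.00211 counts on *mt-Ty* per count on *mt-Co1* in the BCL6-insufficient mice and 0.0190 ± 0.00241 in the wild-type mice. *mt-Tq* was at 15.8, 14.2 and 11.9 against 5.03, 7.81 and 5.55 (log2 1.19, SE 0.26), without overlap. Its log2 fold change was 1.60 in repeat 1, 0.82 in repeat 2 and 0.61 with GC and length trends removed.

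*mt-Ts1* (serine), which shares 3 bases with the end of *mt-Co1*, was at 9.08, 9.34 and 20.01 against 4.11, 3.37 and 4.42 (log2 1.68, SE 0.33). Without repeat 1 of BCL6-insufficient mouse 3 its log2 fold change was 1.18, and with GC and length trends removed 1.15. Repeats 1 and 2 alone gave 2.48 and 1.16. *mt-Ts1* lies between *mt-Co1* and *mt-Co2*, whose chromosome 1 copies *Gm29216* and *Gm28661* are neighbours too. Unannotated sequence between these copies was not searched. *mt-Tp*, *mt-Tt*, *mt-Ta* and *mt-Tw* had log2 fold changes of 0.71, 0.62, 1.25 and 0.84 with SEs of 0.28 to 0.60, *mt-Tm* was at 0.40 (SE 0.66) and *mt-Te* at -0.43 (SE 0.70). With GC and length trends removed, *mt-Tp*, *mt-Ta* and *mt-Tw* were at 0.31, 0.64 and 0.39, *mt-Tt* and *mt-Tm* within 0.04 of 0, and *mt-Te* at -1.05. *mt-Ta* was at 2.24 in repeat 1 and 0.72 in repeat 2, and *mt-Tw* at 1.63 and 0.59. *mt-Tp* was at 0.40 without wild-type mouse 2 and 0.47 without BCL6-insufficient mouse 2, and *mt-Te* ran from -0.71 (without wild-type mouse 2) to -0.23 (without wild-type mouse 1). *mt-Tw* was at 1.49 without wild-type mouse 1 and 0.34 without wild-type mouse 3. *mt-Tm* was at -0.04 without BCL6-insufficient mouse 3, 0.64 without BCL6-insufficient mouse 2 and 0.04 in repeat 2. *mt-Tc* had 1 count in all libraries, in a wild-type mouse, and *mt-Ts2* none. A row at 0 allows up to 0.0843 CPM over the BCL6-insufficient and 0.0859 over the wild-type libraries (a floor of 3 counts, counting error only). The second limit does not hold for *mt-Tc*.

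Ratios within the mitochondrial genome do not depend on how libraries were scaled. *mt-Nd6* per kb over *mt-Nd5* per kb was 0.579, 0.611 and 0.476 in the BCL6-insufficient mice and 0.303, 0.337 and 0.248 in the wild-type mice. *mt-Nd4* counts over *mt-Nd5* counts were 0.554 ± 0.0142 against 0.411 ± 0.00907, and *mt-Nd2* over *mt-Nd1* 0.137 ± 0.0117 against 0.0843 ± 0.0133. *mt-Co1* over *mt-Cytb* was 0.806 ± 0.0325 against 1.11 ± 0.119, while the ratio of the rRNAs, *mt-Rnr2* over *mt-Rnr1* per kb, was 6.96 ± 0.0759 against 6.29 ± 0.567. The mice of the groups did not overlap in these ratios, for the rRNAs by a margin of 6.87 to 6.86. The ratios pair members whose log2 fold changes differ on the same contrast that chose the family. No share was taken over other pairs of genes, so nothing is read from the separation. The 16 plus-strand members tested had a median log2 fold change of 0.60 and the 7 minus-strand members 1.19, with ranges of 0.02 to 1.19 and -0.50 to 1.68. With GC and length trends removed the medians were 0.19 and 0.61. Apart from *mt-Nd6* the minus-strand members are tRNA rows, whereas the plus-strand members are mostly mRNAs and rRNAs. Strand and class can therefore not be told apart here, and the counts may not separate a gene from RNA antisense to it.

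All 6 of the chromosome 1 copies that were tested had log2 fold changes above 0. *Gm28437*, the copy of *mt-Co3*, was at 37.8 ± 3.15 normalized CPM against 16.4 ± 1.88 (log2 1.20, SE 0.17), more counts than *mt-Co3* itself. *Gm29216*, which holds the end of *mt-Co1*, was at 52.8 ± 9.46 against 24.1 ± 8.52 (log2 1.14, SE 0.19), unlike *mt-Co1*. *Gm28661* and *Gm10925* had log2 fold changes of 0.78 (SE 0.21) and 0.97 (SE 0.32), which were 0.40 and 0.53 with GC and length trends removed, and the less counted *Gm10222* and *Gm28439* 1.23 (SE 0.60) and 0.71 (SE 0.73). *Gm28438* had 16 counts over all libraries, as 13 and 3. Whether reads on these rows came from mitochondrial or nuclear RNA was not tested. When the counts of each copy were added to its member, log2 fold changes were 0.99 for *mt-Co2*, 1.15 for *mt-Co3*, 0.99 for *mt-Atp6*, 0.73 for *mt-Nd3*, 0.78 for *mt-Nd4l*, 1.01 for *mt-Nd4* and 0.04 for *mt-Co1*. Of the copies on other chromosomes, *Gm13340* (log2 -0.82, SE 0.69) and *Gm4076* (0.34, SE 0.57) had 97 and 136 counts in all, *Gm13339* had 1 and *Gm13341* none.

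The nuclear genes that serve the mitochondrial genome were compared with edgeR's quasi-likelihood test, adjusted over all genes tested. Of 25 genes of mitochondrial DNA transcription and replication, 2 rose and 1 fell (18.0% of all genes were called, and nothing is read from the difference). *Ssbp1*, which coats single-stranded mitochondrial DNA, rose from 85.5 ± 5.46 to 115 ± 10.2 normalized CPM (log2 0.43, adjusted p = 0.00865), and *Primpol*, a primase-polymerase, by 0.63 on the log2 scale (adjusted p = 0.0314). *Polrmt*, the mitochondrial RNA polymerase, fell by 0.55 on the log2 scale, from 22.1 ± 0.816 to 15.1 ± 0.315 (adjusted p = 0.0422). *Tfam*, which packages mitochondrial DNA and starts its transcription, was at 78.8 ± 6.70 against 72.7 ± 6.31 (adjusted p = 0.557), and the elongation factor *Tefm* at 6.31 ± 1.22 against 6.68 ± 1.95 (adjusted p = 0.895). The list had 0 calls without wild-type mouse 1 and 0 after removal of GC and length trends (edgeR; 3 and 2 at an unadjusted p under 0.05, and 3 calls by DESeq2 on all mice). With those trends removed, the log2 fold changes were 0.31 for *Ssbp1* (adjusted p = 0.0658), 0.54 for *Primpol* (adjusted p = 0.0677) and -0.34 for *Polrmt* (adjusted p = 0.229). Without BCL6-insufficient mouse 1 or 2, or wild-type mouse 2, 1 call was made.

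Of 45 genes of mitochondrial RNA processing and stability, 2 rose and 4 fell (13.3% called, 18.0% of all genes). *Slirp*, which with *Lrpprc* holds mitochondrial mRNAs stable, rose from 92.5 ± 2.53 to 147 ± 12.2 (log2 0.67, adjusted p = 0.000136), and *Ptcd1* rose by 0.36 (adjusted p = 0.0215). *Lrpprc* was at 39.1 ± 2.87 against 32.4 ± 3.61 (adjusted p = 0.224). *Fastk*, whose mitochondrial form is known to act on *mt-Nd6* RNA, fell by 0.64 (adjusted p = 0.00309) and *Grsf1*, a protein of the mitochondrial RNA granules, by 0.53 (adjusted p = 0.0155). *Nsun2* and *Ptcd2* fell by 0.43 (adjusted p = 0.0201) and 0.45 (adjusted p = 0.0435). The poly(A) polymerase *Mtpap* and the nuclease *Pnpt1* had log2 fold changes of 0.16 (adjusted p = 0.626) and 0.02 (adjusted p = 0.966). The list had 3 calls without BCL6-insufficient mouse 1 or mouse 2 and 2 without wild-type mouse 3, and 8 with GC and length trends removed.

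Of 81 nuclear subunits of the respiratory complexes tested, 41 rose and 9 fell (61.7% called, against 18.0% of all genes, 9.17% higher and 8.82% lower), with a median log2 fold change of 0.26. After removal of GC and length trends, 37 were called higher and 8 lower, but repeat 1 alone left 22 calls, log2(TPM + 1) 20 and log2(TPM + 0.1) 2. In complex I, 17 of 37 rose and 2 fell, with *Ndufa2* (log2 0.60, adjusted p = 7.69e-05) and *Ndufa5* (0.67, adjusted p = 0.000134) among the small accessory subunits that rose and the flavoprotein *Ndufv1*, a catalytic core subunit, among those that fell (-0.75, adjusted p = 0.000254). In complex III, 5 of 9 rose, *Uqcrb* with the smallest p (0.68, adjusted p = 2.87e-05). The core protein *Uqcrc1* and the iron-sulfur protein *Uqcrfs1* fell (-0.40, adjusted p = 0.00686 and -0.36, adjusted p = 0.0204). With GC and length trends removed, *Uqcrb* was at 0.41 (adjusted p = 0.0026) and *Uqcrc1* at -0.27 (adjusted p = 0.0559).

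In complex IV, 8 of 14 rose, *Cox5b* with the smallest p (0.57, adjusted p = 0.000108) and *Cox7b* with the largest log2 fold change (0.60, adjusted p = 0.000125), and *Cox7a2l* fell (-0.31, adjusted p = 0.0405). With GC and length trends removed, *Cox7b* was at 0.43, below *Cox5b* at 0.63 and *Cox6c* at 0.58. In complex V, 11 of 17 rose, *Atp5md* with the smallest p (0.76, adjusted p = 5.87e-06), and the catalytic subunits *Atp5b* (-0.53, adjusted p = 0.000369) and *Atp5a1* (-0.51, adjusted p = 0.000972) fell. In complex II, which has no mitochondrially encoded subunit, *Sdhd* (-0.96, adjusted p = 2.24e-06) and *Sdha* (-0.64, adjusted p = 0.000169) fell and none of the 4 rose.

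**Figure D5:**
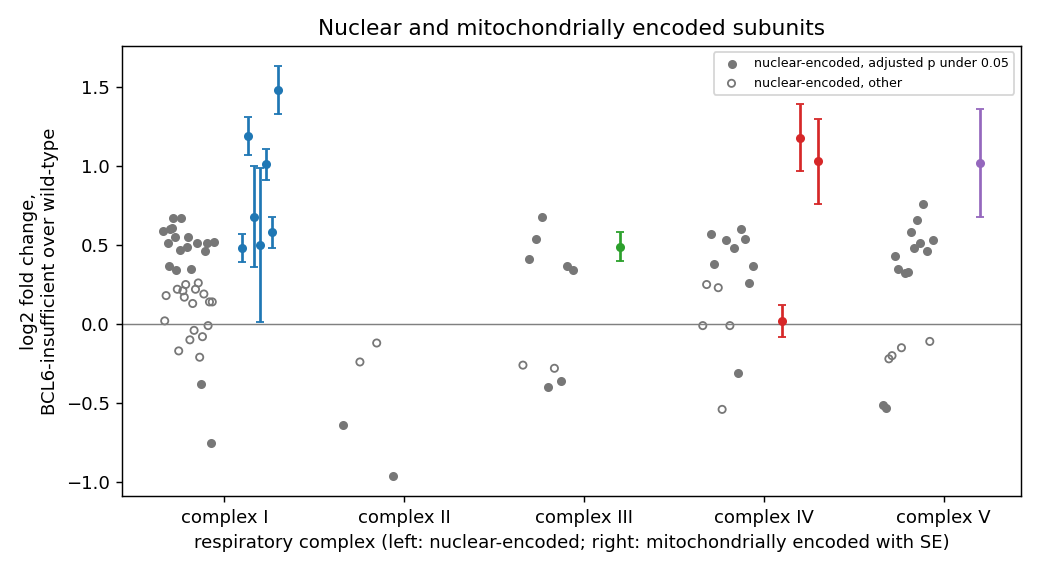
Log2 fold change of BCL6-insufficient over wild-type (y axis) of nuclear-encoded subunits (left, filled where the adjusted p is under 0.05) and mitochondrially encoded subunits (right, with SE) of each respiratory complex (x axis). Complex I has 37 nuclear and 7 mitochondrial subunits tested, complex II has no mitochondrial subunit.

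Of 39 genes of mitochondrial import, matrix and membrane, 4 rose and 13 fell (43.6% called), with the channel *Vdac1* at a log2 fold change of -0.70 (adjusted p = 0.000216), the citrate synthase *Cs* at -0.51 (adjusted p = 0.000624) and *Tomm7* at 0.50 (adjusted p = 0.000646). Of 10 regulators of mitochondrial biogenesis, *Yy1* rose (0.77, adjusted p = 0.000621) and *Gabpa* fell (-0.42, adjusted p = 0.0315), and the coactivator *Ppargc1a* had 2 counts in all (20.0% called). In the integrated stress response, which follows mitochondrial faults among other causes, *Atf4* rose (0.34, adjusted p = 0.022), and *Phgdh* (-0.62, adjusted p = 0.000289), *Psat1* (-0.62, adjusted p = 0.00038) and *Sesn2* (-2.16, adjusted p = 0.000626) fell, out of 12 genes tested (33.3% called). Of 15 heat shock and dissociation stress genes, *Jund* rose (0.41, adjusted p = 0.048), and *Jun* (-1.18, adjusted p = 0.0198) and *Dnajb1* (-0.31, adjusted p = 0.0401) fell (20.0% called). With GC and length trends removed, *Dnajb1* was at -0.21 (adjusted p = 0.185). These shares stand beside 18.0% of all genes.

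Markers of the labelled cell type were present: all 11 T cell and all 11 Tfh markers were detected in both groups. The summed T cell markers were at 12772 to 14004 CPM against 10015 to 11864, mostly *Trac* (6600 to 7168 and 4134 to 5402 CPM) and *Trbc2* (2336 to 2808 and 1799 to 1980), while *Lck* ran lower (603 to 699 and 775 to 901). The summed Tfh markers were at 2324 to 2431 against 2378 to 2514, with 3 markers up and 3 down in each list (54.5% called, against 18.0% of all genes). With GC and length trends removed, *Cd4*, *Cd5* and *Lck*, the T cell markers called lower, had adjusted p = 0.147, 0.161 and 0.119, and *Trbc1*, called higher, 0.224 (edgeR). The 15 B cell markers summed to 514 to 752 CPM against 626 to 910, mostly *Ighm* (481 to 599 and 605 to 785 CPM), with *Ms4a1* at 0 to 1.13 and 0 to 0.463. *Ighm* had a log2 fold change of -0.30 (adjusted p = 0.0511), whereas 8 of the 10 tested were above 0, with a median of 0.49. None of 10 B cell markers tested was called by edgeR (1 at an unadjusted p under 0.05, and 1 called by DESeq2). The 9 myeloid markers in the table summed to 106 to 131 CPM against 86.3 to 89.0, mostly *Cst3*, and *Lyz2* was higher in the BCL6-insufficient mice (log2 2.64, adjusted p = 0.00531). The part of these cells in the members' values was not tested.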

How the data were processed

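Whole-gene read counts and TPM (scaled for gene length and library size) of 12 libraries were deposited by the authors, who prepared them with SMART-Seq2, aligned reads with HISAT2 2.2.1 to mm10 (GRCm38) and counted them per gene with HTSeq. The annotation release, the strand setting and the gene lengths behind the deposited TPM are not given in the sources used here. Counts of the 2 technical repeats were summed per mouse and tested with edgeR 4.0.16 (TMM, filterByExpr, quasi-likelihood F test, Benjamini-Hochberg over 12719 genes) in R 4.3.3, BCL6-insufficient against wild-type. Because the repeats were summed, each mouse counts once, and p-values measure the spread between these mice. Normalized CPM used the TMM library sizes, and SEs are the log2 fold change divided by the root of F. DESeq2 1.42.0, limma 3.58.1 on log2(TPM + 1) and log2(TPM + 0.1), other scalings and filters, each repeat alone, each mouse left out, the mouse number as a block, and the removal of GC and length trends (mgcv 1.9.3, GC known for 99.2% of tested genes) were alternatives. Leaving out repeat 1 of BCL6-insufficient mouse 3 and adding the chromosome 1 copies to their members were chosen after seeing the data. The statistical code was tested on simulated counts. Nuclear copies were searched with blastn 2.17.0 among GENCODE M21 transcripts, to which 24059 of the 24561 symbols in the count table matched.

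The members and gene lists were chosen with earlier results of these data known. Named were all members, the nuclear copies, *Bcl6*, the largest rRNA row, and from each nuclear list up to 4 called genes a direction by smallest p, of which some are printed, with *Tfam*, *Polrmt*, *Tefm*, *Lrpprc*, *Slirp*, *Mtpap*, *Pnpt1* and *Ppargc1a* whatever their values. *Gm29215*, listed as a copy, matched no mitochondrial gene and was left out.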

Additional observations from a re-analysis of the deposited data

Results flagged for a closer look

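Dixon's criterion was applied to 50 sets of 6 libraries. The sets were each member with at least 10 counts per library on average, and the shares of counts. In 5 sets 1 library lay far from the others. Chance would give about 2.5 if the sets and libraries were independent. They were not, as sets share libraries and libraries are technical repeats of the same mice, so nothing is read from this count. Repeat 1 of BCL6-insufficient mouse 3 was the highest library of its group for *mt-Ts1* (41.6 normalized CPM, median of the others 8.88), *mt-Co2* (93.3 and 26.0), *mt-Atp6* (27.6 and 6.81) and *mt-Co3* (45.2 and 12.3). Of the members with that many counts, these 4 are neighbours on the map, between *mt-Co1* and *mt-Nd3*, and this library was also the smallest. Repeat 2 of wild-type mouse 2 was highest for *mt-Ta* (3.36, median of the others 0.652), a row with 2 to 21 counts in that group. What set these libraries apart was not tested.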

How the results depend on the processing

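The median log2 fold change of the members stayed above 0 under every alternative run. It moved beyond the spread between mice on removal of GC and length trends (0.31, and 0.36 with the replicate block) and without wild-type mouse 1; leaving out mice gave 0.54 to 0.92. The ratio of the groups' shares of counts, 1.24, ran from 1.16 to 1.39. The 2288 genes called became 1059 and 1446 on repeat 1 or 2 alone, 1330 on log2(TPM + 1) and 463 on log2(TPM + 0.1), and 1424 to 1972 with a mouse left out. On TPM 29.4% and 28.7% of the calls were higher, against 51.0% on counts, and the median of all genes shifted to -0.07 and -0.11. Calls in the list of mitochondrial DNA transcription and replication fell from 3 to 1 on either repeat or either TPM scale, to 0 with GC and length trends removed, and to 0 to 2 with a mouse left out. Calls in RNA processing and stability fell from 6 to 3 on repeat 2 and log2(TPM + 1), to 1 on log2(TPM + 0.1), ranged over 2 to 6 with a mouse left out, and rose to 7 by DESeq2, 8 with GC and length trends removed and 9 with the block as well. The 50 calls among nuclear subunits became 22 on repeat 1, 20 on log2(TPM + 1) and 2 on log2(TPM + 0.1). Single repeats and fits with a mouse left out rest on fewer data, and the cause of these changes was not tested. Of 451 values of single members under alternatives, 71 moved by over 1 SD and no called member changed sign.

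Mice with the same number did not deviate together (correlations of deviations 0.0852, -0.0283 and 0.0247), so the numbers were not taken to pair the mice, and not every mouse correlated best with its own number. With the replicate block, 2579 genes were called, and 13 members higher and 1 lower (12 and 1 without it). With the block and GC and length trends removed, the list of mitochondrial DNA transcription and replication had 2 calls. Small rows limit what can be seen: members with under 10 counts in a library had SEs of 0.49 to 0.70.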
